A study of Mus musculus with 23 samples.

Results

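The oxytocin receptor transcript Oxtr was found in 5 of the 15 neurons whose titles begin with JCb5.2, and those 5 are described here beside the other 10. A gene is called found in a cell at 1 FPKM or more, where FPKM corrects the fragments of a gene for its length and for the size of the library. The 5 cells, called Oxtr cells, are numbers 2, 4, 6, 7 and 13 of that title set, and their own Oxtr value chose them. They are 33.3% of the 15 cells, with an exact Clopper-Pearson 95% interval of 11.8 to 61.6% that covers counting error only. The series holds 23 libraries in all, the other 8 having titles that begin with JCb6, and the labels do not explain either prefix.

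Each library came from 1 hand-picked GFP-positive neuron of the arcuate hypothalamus, dissociated with papain. Donors were 2 young adult male mice of mixed background carrying vGLUT2-IRES-Cre and loxSTOPlox-L10-GFP, so all 3 groups of cells share the same alleles and no treatment separates them. In such mice Cre is made wherever the VGLUT2 gene Slc17a6 is active, and the GFP marks any cell that has ever made Cre, also one that no longer does. The study looked in these profiles for receptors of excitatory arcuate neurons that act on satiety. The labels tie no cell to a mouse. Cells are not replicates of a condition, and with the cells chosen on a measured transcript no difference between the groups is tested and no p-value is given: all that follows is a description of 5 cells beside 10.

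Oxytocin is a peptide hormone and transmitter made mainly by neurons of the paraventricular and supraoptic nuclei. Its receptor, encoded by Oxtr, is a G protein-coupled receptor that acts chiefly through Gq proteins, phospholipase C and calcium release, and in neurons it usually raises excitability. The arcuate nucleus, at the base of the hypothalamus, holds feeding neurons that read peptides from the gut and from other hypothalamic nuclei; cholecystokinin, the ligand of the receptor encoded by Cckar, is one of the gut peptides that end a meal.

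Promoters of 5 genes are shown because these genes carry the pattern: Oxtr itself, Tspan33 and Bok among the genes found with it, and Prdm12 and Ntsr1 for a transcription factor and a receptor among them. Each runs from 250 bases before to 50 bases after the annotated start, 5′ to 3′ on the gene's strand, from RefSeq on GRCm38.p6. Capitals mark matches on either strand to 4 motifs, the GC box GGGCGG, the E-box CACGTG, the CCAAT box CCAAT and the TATA box TATAAA. The windows are chr6:112489776-112490075 (minus strand) for Oxtr, chr6:29693964-29694263 (plus) for Tspan33, chr1:93685325-93685624 (plus) for Bok, chr2:31639787-31640086 (plus) for Prdm12 and chr2:180499726-180500025 (plus) for Ntsr1.
Oxtr: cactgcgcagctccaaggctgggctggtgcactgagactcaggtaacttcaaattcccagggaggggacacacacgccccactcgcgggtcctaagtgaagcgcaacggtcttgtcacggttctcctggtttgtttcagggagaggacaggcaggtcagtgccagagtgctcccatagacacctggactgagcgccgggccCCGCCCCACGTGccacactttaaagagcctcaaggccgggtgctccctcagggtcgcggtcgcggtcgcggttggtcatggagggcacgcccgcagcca
Tspan33: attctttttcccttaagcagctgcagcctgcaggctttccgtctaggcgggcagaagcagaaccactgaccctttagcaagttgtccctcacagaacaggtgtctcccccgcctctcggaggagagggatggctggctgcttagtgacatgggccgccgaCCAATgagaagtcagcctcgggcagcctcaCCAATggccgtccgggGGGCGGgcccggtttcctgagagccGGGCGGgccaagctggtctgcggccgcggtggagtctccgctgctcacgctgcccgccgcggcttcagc
Bok: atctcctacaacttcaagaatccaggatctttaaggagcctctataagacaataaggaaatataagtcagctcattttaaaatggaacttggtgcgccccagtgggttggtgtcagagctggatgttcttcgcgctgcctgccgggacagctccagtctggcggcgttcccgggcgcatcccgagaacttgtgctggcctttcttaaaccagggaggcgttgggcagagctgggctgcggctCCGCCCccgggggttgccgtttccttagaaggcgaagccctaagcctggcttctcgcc
Prdm12: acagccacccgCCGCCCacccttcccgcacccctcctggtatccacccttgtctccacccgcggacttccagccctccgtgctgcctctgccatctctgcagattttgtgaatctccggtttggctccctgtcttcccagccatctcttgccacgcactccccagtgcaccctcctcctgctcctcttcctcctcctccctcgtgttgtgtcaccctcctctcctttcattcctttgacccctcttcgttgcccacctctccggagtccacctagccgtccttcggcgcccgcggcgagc
Ntsr1: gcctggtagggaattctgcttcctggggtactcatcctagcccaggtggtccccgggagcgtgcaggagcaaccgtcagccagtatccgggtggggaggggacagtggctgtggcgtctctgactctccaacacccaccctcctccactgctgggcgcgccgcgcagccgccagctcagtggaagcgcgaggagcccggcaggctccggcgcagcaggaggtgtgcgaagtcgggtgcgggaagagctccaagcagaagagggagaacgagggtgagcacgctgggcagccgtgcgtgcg
The Oxtr window holds 1 GC box directly followed by 1 E-box, and the Ntsr1 window holds none of the 4 motifs. Tspan33 has 2 GC boxes and 2 CCAAT boxes, and Bok and Prdm12 have 1 GC box each.

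Oxtr, on the minus strand of chromosome 6 (112473684 to 112489808, mm10, protein coding), had 6.09, 7.46, 12.2, 7.67 and 22.8 FPKM in cells 2, 4, 6, 7 and 13. Values of Oxtr cells are given in that order of cells throughout. In the other 10 JCb5.2 cells it ran from 0 through a median of 0.0867 to 0.360 FPKM, and it was listed at 0 in all 8 JCb6 cells. The lowest Oxtr cell was thus cell 2 at 6.09 FPKM, and the highest cell on the other side of the threshold was cell 12 at 0.360 FPKM. Low values of the gene lie on steps worth 1 read each, which put these at 178, 178, 460, 179 and 646 in Oxtr cells and 0 to 7 reads in the others, with every value within 0.01 of a whole number. A gap of that kind leaves the 5 cells the same at any threshold between those values. Absence in 8 JCb6 cells still allows a share of up to about 37.5% of such cells, for counting error only. That limit is 3 divided by the number of cells, an approximation that is rough for so few cells.

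Cckar, the cholecystokinin A receptor, was found in all 5 Oxtr cells, with 28.7, 22.9, 125, 16.9 and 68.1 FPKM. Among the other 10 cells it was found in 6, from 0.202 through a median of 2.69 to 59.5 FPKM. The groups overlap, since cell 11 (59.5 FPKM) and cell 5 (19.2 FPKM) lie within the span of the Oxtr cells. At 10 FPKM or more, Cckar was in 5 of 5 Oxtr cells, 2 of 10 other JCb5.2 cells and 1 of 8 JCb6 cells. Cckbr, the second cholecystokinin receptor, was found in 1 Oxtr cell and 1 other cell.

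**Figure D1:**
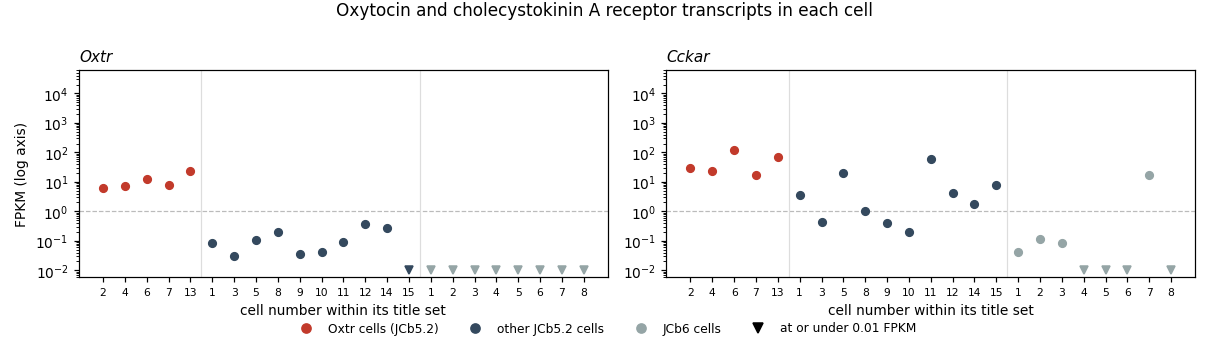
Oxtr and Cckar in each cell, in FPKM on a log axis, with 1 point per cell and the dashed line at 1 FPKM; triangles are cells at or under 0.01 FPKM. Oxtr separates cells 2, 4, 6, 7 and 13 (6.09 to 22.8 FPKM) from the other JCb5.2 cells (0.360 FPKM or less) because it chose them, whereas Cckar spans 16.9 to 125 FPKM in the Oxtr cells and overlaps with the other cells.

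The Oxtr cells had a broad neuronal transcriptome, with gene numbers that overlap those of the other cells. They held 6627 to 8025 found genes (median 7219), against 6373 to 7822 (median 7098.5) in the other JCb5.2 cells. Relative depth, estimated from the step that 1 read is worth and set to 1 in cell 12, was 1.20 to 1.94 in Oxtr cells and 0.587 to 1.83 in the others. All 14 pan-neuronal genes of the list were found in an Oxtr cell and 10 of them in all 5. Markers of other cells were few: of 7 microglial and 11 vascular genes none was found in an Oxtr cell, with sums of at most 0.997 and 0.850 FPKM, against at most 8.86 and 9.98 FPKM in the other cells. Csf1r (microglia) was at most 0.0496 FPKM and the endothelial Cldn5 was listed at 0. Of 7 astrocyte genes 2 were found in Oxtr cells (summed 0.154 to 11.9 FPKM, against 0 to 166 FPKM in the others), and Slc1a3 was listed at 0. Of 9 oligodendrocyte lineage genes 3 were found (0.322 to 53.4 FPKM, against 0.218 to 39.3 FPKM in the others). Alpha globin Hba-a2, a transcript of red blood cells, was found in 5 of 5 Oxtr cells (5.82 to 247 FPKM) and 9 of 10 others (up to 486 FPKM).

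The 5 Oxtr cells did not share a peptide profile. Pomc, which encodes the precursor of alpha-MSH, a peptide that lowers food intake, had 25.5, 3214, 4663, 412 and 3815 FPKM, against 28.1 through a median of 218 to 9534 FPKM in the other cells. Cartpt, the precursor of the CART peptides, had 1793, 32793, 28433, 317 and 15794 FPKM, against 152, 866 and 21807 FPKM as the lowest, median and highest of the others. Cells 4, 6 and 13 were therefore high in both peptides, while cells 2 and 7 were far lower. Cell 12, which had 21807 FPKM of Cartpt and the highest Pomc of the JCb5.2 cells, was the 1 cell among the 4 highest for Cartpt that was not an Oxtr cell. Sncg, encoding gamma-synuclein, followed the same division with 8.49, 769, 1483, 14.9 and 1240 FPKM, against 6.61 to 1393 FPKM (median 11.0) in the others, its highest value being in cell 12. So did the intermediate filament Vim, also a tanycyte marker, at 0.367, 74.9, 60.1, 2.41 and 68.4 FPKM, against 0.187 to 258 FPKM (median 0.883) in the others with the highest value again in cell 12. The tanycyte gene Rax was listed at 0 in all 15 cells, and the tanycyte and ependymal list summed to 0.367 to 81.6 FPKM in Oxtr cells against 0.317 to 259 FPKM in the others.

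Prdm12, a transcription factor required for Pomc expression in mouse, took another course. It had 0, 29.0, 14.3, 46.8 and 18.7 FPKM, against 0 through a median of 0.221 to 2.87 FPKM in the others, where it was found in 2 cells. Its highest value lay in cell 7, which had little Cartpt, and it was listed at 0 in cell 2. Over the 16 POMC neuron genes, 8 had a median log2(FPKM + 1) more than 1 higher in Oxtr cells and 1 more than 1 lower, with a median difference over the list of 1.15. Over all genes tested the median difference was 0, with 7.65% more than 1 higher and 4.8% more than 1 lower. Cells 4, 6 and 13 are 3 of the 5 and so set the medians of Pomc, Cartpt and Sncg, and the list is not independent of earlier results of these data.

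The remaining feeding peptides were low or spread over both groups. Agrp and Npy, of the hunger-promoting AgRP neurons, were at most 2.14 and 9.75 FPKM in Oxtr cells, against up to 433 and 2659.6 FPKM in the others. Kiss1 was highest in cell 2 among Oxtr cells at 33.3 FPKM, whereas it reached 1485 FPKM in cell 8 of the others. Sst, encoding somatostatin, was likewise highest in cell 2 at 903 FPKM and between 41.2 and 67.0 FPKM in the other Oxtr cells; it reached 29792 FPKM among the others. Gal, encoding galanin, was found in all 15 cells, with 429, 69.0, 3279, 137 and 1340 FPKM in Oxtr cells against 6.88 to 392 FPKM (median 198) in the others. Cells 2, 6 and 13 thus exceeded every other JCb5.2 cell for Gal, and cells 4 and 7 did not. Nmb, encoding neuromedin B, ran the opposite way and was found in 2 of 5 Oxtr cells and 8 of 10 others. Cell 12 was among these others with an estimated 3 reads. Thyrotropin-releasing hormone (Trh, 22.9 FPKM), neurotensin (Nts, 12.1 FPKM) and neuromedin S (Nms, 13.7 FPKM) were each found in 1 Oxtr cell, cell 13 for Trh and Nts and cell 6 for Nms, and in no other JCb5.2 cell.

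All 5 Oxtr cells had the transcript of the Cre driver gene. Slc17a6, which encodes VGLUT2 and loads glutamate into vesicles, had 67.3, 22.9, 39.4, 51.2 and 22.7 FPKM, against 0.520 to 78.7 FPKM (median 31.4) in the others. Enzymes of GABA synthesis were also present in most Oxtr cells, though rarely both. Gad1 had 0.435, 97.2, 0.364, 2.56 and 0.862 FPKM, against 0.434 to 247 FPKM (median 43.4) in the others. Gad2 had 0.441, 101, 87.5, 0.621 and 130.4 FPKM, against 0.543 to 109 FPKM (median 39.0) in the others. Both were found together in 1 of 5 Oxtr cells, cell 4, and in 7 of 10 other cells; at least one was found in 4 of 5 and 9 of 10. The exception among Oxtr cells, cell 2, also had the most Slc17a6 of the 5. Slc32a1, the vesicular GABA transporter, was found in no Oxtr cell, with at most 0.0592 FPKM, and in 2 others, with up to 15.3 FPKM. Slc18a2, the vesicular monoamine transporter, reached 45.4 FPKM in cell 6 and 142 FPKM in cell 13, against at most 11.6 FPKM in the others, while the dopamine synthesis enzyme Th was listed at 0 in all of them.

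**Figure D2:**
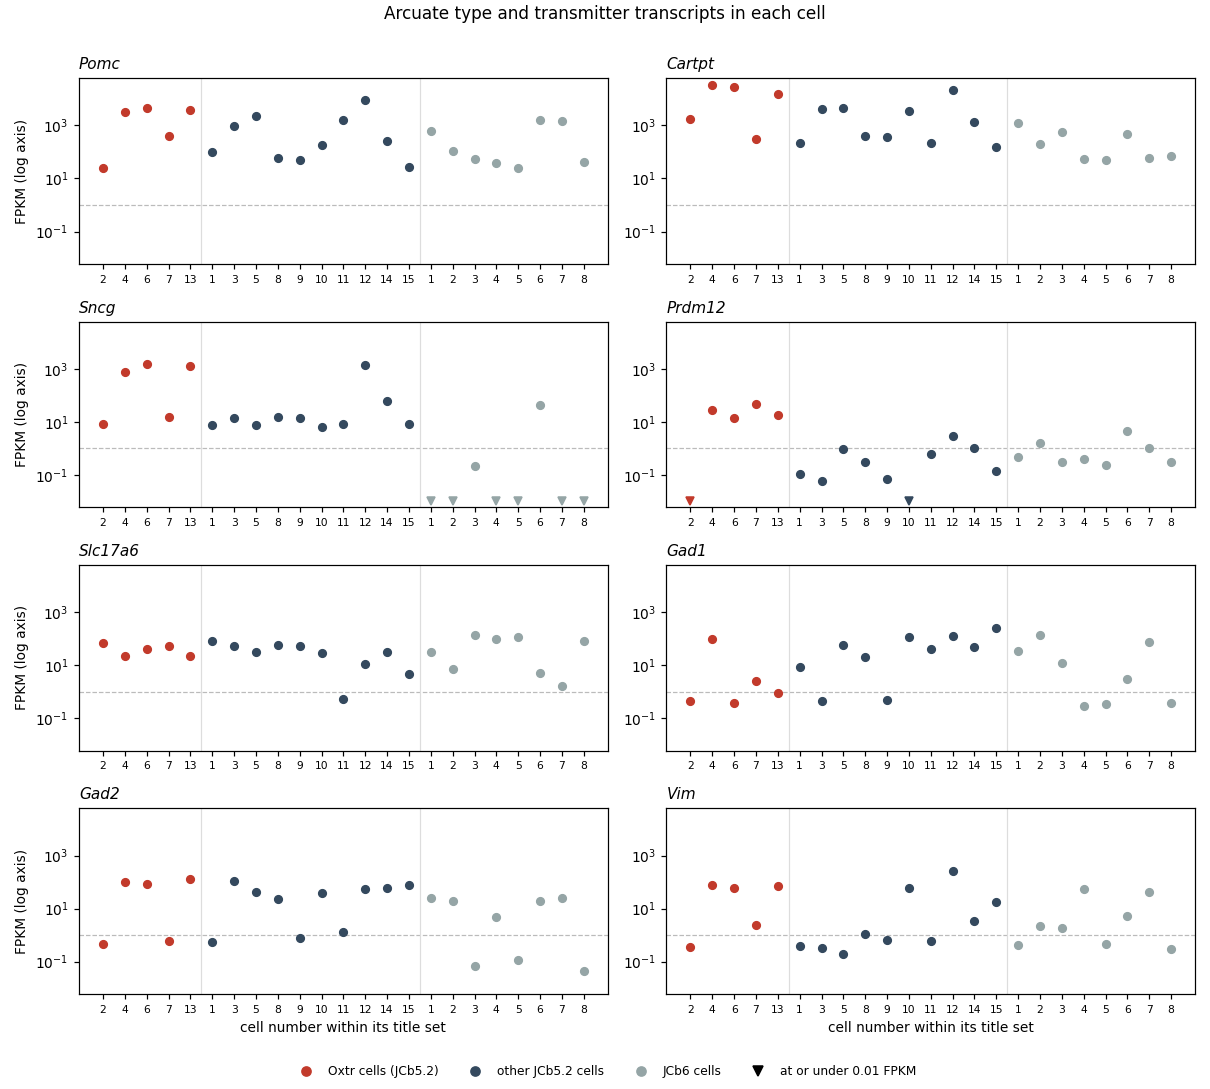
Peptide, transcription factor, transmitter and filament transcripts in each cell, in FPKM on a log axis, 1 point per cell, with the dashed line at 1 FPKM and triangles at or under 0.01 FPKM. Cells 4, 6 and 13 lie high for Pomc, Cartpt, Sncg and Vim together with cell 12 of the other JCb5.2 cells, while cells 2 and 7 lie low for Sncg (8.49 and 14.9 FPKM); Slc17a6 is above 22 FPKM in all 5 Oxtr cells.

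In all, 85 of 22635 genes with a locus of at least 300 bp were found in 4 or 5 of the 5 Oxtr cells and in at most 2 of the other 10, which is 0.376%. Oxtr is 1 of the 85. Since the comparison rests on cells that Oxtr chose, nothing is read from that share. At a level of 5 FPKM in place of 1, 16 of the 85 kept the pattern. Of the remaining 84 genes, 7 were found in all 5 Oxtr cells and 77 in 4; 9 were found in none of the others, 10 in 1 and 65 in 2. Absence from 10 cells allows a share of up to about 30.0% of such cells, by the same rough limit and for counting error only. For 57 of the 84 the highest of the other cells lay above the median Oxtr cell, so most are found more often in Oxtr cells without being higher than in every other cell.

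Tspan33, a tetraspanin of the plasma membrane (chromosome 6, 29694256 to 29718558, plus strand), came next to Oxtr. It had 31.4, 11.1, 3.24, 1.07 and 9.47 FPKM, against 0 to 4.96 FPKM (median 0.129) in the others, where it was found in 1 cell. Cell 6 and cell 7 overlap with that cell. Ppap2c, a phospholipid phosphatase, had 20.0, 24.9, 2.09, 62.8 and 22.9 FPKM, against 0 to 27.4 FPKM (median 0.368) in the others, found in 2. Ank, which exports pyrophosphate from cells, had 19.0, 19.9, 23.1, 5.79 and 10.3 FPKM, against 0 to 13.0 FPKM (median 0.192) in the others, found in 2. These 3 were found in every Oxtr cell, and for each at least 1 other cell lay within their span. Tmc7, a transmembrane channel-like protein, had 8.71, 3.71, 7.01, 0 and 1.51 FPKM, against at most 0.771 FPKM in the others. Mfsd7b, a haem exporter also called Flvcr1, had 8.39, 0, 1.73, 2.41 and 10.3 FPKM, against up to 9.61 FPKM in the others, that highest value being in cell 12.

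Bok, a pore-forming relative of Bcl-2 in cell death (chromosome 1, 93685694 to 93695762, plus strand), was found in no cell outside the group. It had 19.7, 13.8, 0, 26.2 and 4.81 FPKM, against 0 to 0.427 FPKM (median 0.0970) in the other JCb5.2 cells, and was found in no JCb6 cell. As whole reads these were estimated at 236, 135, 0, 251 and 56, against 0 to 3. Csrnp2, a nuclear protein of the cysteine-serine-rich family, had 3.67, 10.1, 3.55, 8.03 and 0.0166 FPKM, against 0.0132 to 0.0968 FPKM in the others, and Fam199x had 0.222, 5.56, 9.57, 4.81 and 1.58 FPKM, against 0 to 0.520 FPKM in the others. Bok is listed at 0 in cell 6, Csrnp2 is near 0 in cell 13 and Fam199x is lowest in cell 2, so each of these genes leaves out a different Oxtr cell. Dyrk3, a kinase that dissolves condensates, had 19.4, 20.1, 25.4, 0.1001 and 13.2 FPKM, against 0 to 31.1 FPKM (median 0.0754) in the others, where the highest value was the only one above the threshold. Mvk, mevalonate kinase of the cholesterol pathway, had 8.26, 23.5, 5.48, 0.0754 and 17.0 FPKM, against up to 10.6 FPKM in the others. Fn3krp, a kinase acting on glycated proteins, was found in 5 of 5 Oxtr cells at 31.7, 10.6, 1.59, 15.6 and 1.10 FPKM, against 0 to 11.2 FPKM in the others, 2 of them above 1 FPKM.

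Ranked members that act on RNA or in the nucleus follow. Ints12, a subunit of the Integrator complex that processes small nuclear RNAs, had 11.6, 7.00, 1.03, 0.248 and 1.41 FPKM, against 0 to 0.232 FPKM in the others; as estimated reads these were 586, 289, 67, 10 and 69, against 0 to 9. It was found in 5 of 8 JCb6 cells. Gemin4, of the SMN complex that assembles splicing particles, had 9.67, 9.81, 1.11, 14.3 and 8.87 FPKM, against 0.0471 to 13.2 FPKM in the others, found in 2. Pcbp3, a poly(C)-binding protein, stayed between 1.22 and 2.44 FPKM in Oxtr cells, against 0.0525 to 2.94 FPKM in the others. Cpeb3, a translational regulator, Rad52, a DNA repair protein, and the transcription regulators Cited2, Zfp422 and Zfp385b also belong to the 25 ranked first. Zfp422 had 10.7, 8.03, 0.854, 1.85 and 12.5 FPKM, against up to 1.76 FPKM in the others. Cited2 had 0.133, 4.40, 18.5, 22.8 and 4.19 FPKM, against up to 8.47 FPKM in the others. Of the 84 genes, 7 bear a Zfp name, and the share over all genes was not counted.

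**Figure D3:**
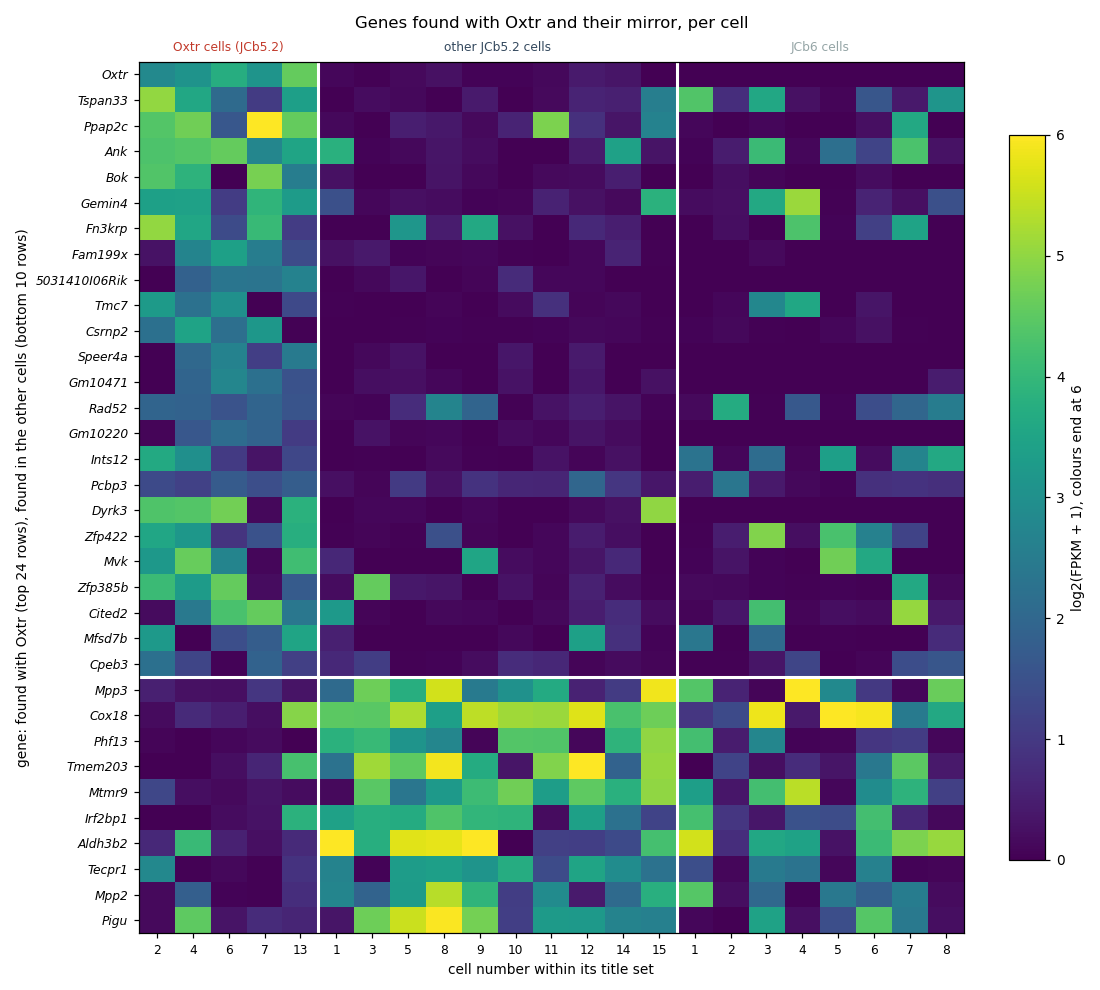
First-ranked genes found with Oxtr (upper 24 rows) and of the mirror pattern (lower 10 rows) in each cell, coloured by log2(FPKM + 1) with the colour scale ending at 6. Oxtr cells are on the left, the other JCb5.2 cells in the middle and JCb6 cells on the right; rows such as Bok and Csrnp2 are bright in 4 Oxtr cells and dark in all 10 others, while no upper row reaches 1 FPKM in more than 2 of the others and every lower row reaches it in at least 8, as the choice of genes set.

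A cluster on chromosome 5 supplied 4 of the 25. Speer4a, Gm10471, 5031410I06Rik and Gm10220 lie between 26034270 and 26121425 on the minus strand, with gaps of 42666 bp or less, and a relative among the 85, Speer4b, lies at 27495809 to 27501392. Speer4a had 0, 3.10, 5.27, 1.15 and 4.50 FPKM, against 0 to 0.346 FPKM in the others. All 4 were found in cells 4, 6, 7 and 13 and in no other JCb5.2 or JCb6 cell. Their values, like those of Speer4b, ran together over the 15 cells, with Spearman rho between 0.767 and 0.935 for the 10 pairs, which share libraries and depth. Speer4 genes are close copies of one another, so the split of reads among them is uncertain and they may stand for fewer than 5 transcripts. The same holds for Xlr3a, Xlr3b and Xlr3c on chromosome X, which were each found in cells 2, 6, 7 and 13 and in 2 other cells.

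The Oxtr cells held unlike numbers of the members. Cell 13, with the most Oxtr, held 80 of the 84 genes and cell 4 held 73, cell 6 held 68, cell 7 held 63 and cell 2 held 59. In the other JCb5.2 cells the count was 10 to 17 (median 14.5), a difference fixed by the choice of genes. Among the 84, 53 were found in all of cells 4, 6 and 13, and 38 in both cells 2 and 7. The genes missing from 1 Oxtr cell were missing most often from cell 2 (25 genes) and cell 7 (21), then from cell 6 (16), cell 4 (11) and cell 13 (4). Found genes of any kind ran in the same order, with 8025, 7596, 7219, 6699 and 6627 in cells 13, 4, 6, 7 and 2. The 8025 of cell 13 were the most of all 15 cells. What part these totals have in the counts of members was not tested. Cell 12, which shares high Cartpt, Pomc, Sncg and Vim with cells 4, 6 and 13, held 13 of the 84, within the span of the other cells. Mfsd7b, Ntsr1, Prdm12, Aqp11 and Tysnd1 were among the 13; Aqp11 and Tysnd1 were named after their values were seen.

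Cells not used in the choice were also looked at for these genes. In the 8 JCb6 cells, without Oxtr, 10.7 to 40.5% of the 84 were found (median 31.0%), against 17.8 to 33.5% of all genes of 300 bp or more (median 29.0%). The bases are unlike: the 84 were kept for being found in most Oxtr cells. Of all 22635 genes, only 13788 were found in any JCb5.2 cell. The nearness of these shares therefore does not show that the members behave like any gene, and nothing is read from it. Of the 84, 12 were found in no JCb6 cell, Bok, Csrnp2, Dyrk3 and Fam199x among them, and 7 in 5 or more, among them Ints12 and Rad52.

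Beyond the cell pattern, a few features of the members were set beside those of found genes where these were counted. All 83 members with a GENCODE entry are protein coding, as are 12931 of the 13650 found genes with an entry. The members' median locus was 15783 bp, against 20624 bp for all found genes. On chromosome X lie 6 members, the Xlr3 genes among them, and the share over all genes was not counted. Of the 85, 73 had a promoter in the RefSeq table. A GC box was in 68.5% of these windows, 62.1% of those of 10780 genes found in a JCb5.2 cell and 35.7% of all 32851 windows. A CCAAT box was in 34.2% of the members' windows, against 38.4% for found genes and 37.4% of all, and a TATA box in 6.85%, against 7.20% and 13.6%. The E-box next to the GC box of the Oxtr window, printed above, was in 5.48% of the members' windows, against 9.69% for found genes and 7.15% of all. The members' shares lay nearer to those of found genes than to all windows for the GC box and the TATA box, and nearer to all windows for the CCAAT box and the E-box, which 4 members hold. A match marks letters in a window and not a bound site.

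By likeness over the 15 cells, St8sia1, a sialyltransferase that makes gangliosides, stood closest to Oxtr. Likeness here is Spearman rho among 10506 genes found in 3 or more JCb5.2 cells, given as a description, over points that share libraries and depth. St8sia1 had a rho of 0.90, with 3.79, 0.354, 3.46, 0.0851 and 11.7 FPKM, against 0 to 0.128 FPKM in the others. It was found in only 3 Oxtr cells and so is not among the 85. The ranking uses the Oxtr values that chose the cells, and in the other 10 cells Oxtr had 0 to 7 reads and St8sia1 0 to 5, so most of the ranks behind this rho differ by a few reads. Zfp422 (0.86), Pcbp3 (0.82), Ints12 (0.81) and the zinc finger factor Patz1 (0.79) followed, then the LIM-domain protein Lmo2 (0.78), Plp2 (0.77), the mitochondrial protease Oma1 (0.75), the extracellular protease Adamts1 (0.75) and Jtb (0.75). Lmo2 reached 108, 28.8, 69.8, 0.853 and 33.0 FPKM, against 0.294 to 25.9 FPKM in the others. In the opposite direction stood Gmip, a GTPase-activating protein (-0.89), Mpp3 (-0.83), Txndc5 (-0.82), Tet1 (-0.81) and Zbtb43 (-0.80).

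Complete separation was rare. Every Oxtr cell lay above every other JCb5.2 cell for 5 genes, 0.0221% of those tested, Oxtr included. Dnajc15, a mitochondrial co-chaperone, had 215, 169, 154, 136 and 187 FPKM, against 21.5 to 130.1 FPKM (median 84.7) in the others. Gt(ROSA)26Sor, the transcript of the Rosa26 locus, had 18.9, 21.8, 27.4, 36.2 and 33.7 FPKM, against 0.383 to 13.5 FPKM (median 2.07) in the others. Dnajc15 was found in all 23 cells and separates by level alone, whereas Gt(ROSA)26Sor was found in 7 of the 10 others. Ints12 was also among the 5, with 1 Oxtr cell under 1 FPKM. Every Oxtr cell lay below every other cell for 4 genes, 0.0177%, which were Add3, Clcn4-2, Gmip and Smc5. For Add3 the highest Oxtr cell had 0.0272 FPKM and the lowest other cell 0.0283 FPKM. For Clcn4-2 these were 9.59 and 9.64 FPKM, so both gaps were narrow. Gmip had 0.0402, 0, 0, 0 and 0.0827 FPKM, against 0.121 to 14.8 FPKM (median 2.77), and Smc5, of the SMC5/6 DNA repair complex, 0.0258 to 0.0662 FPKM, against 0.108 to 21.0 FPKM (median 5.93). As estimated reads, Gmip had at most 2 in Oxtr cells and at least 2 in the others, so the groups meet when counted in reads.

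The mirror pattern, found in at most 1 Oxtr cell and at least 8 of the other 10, held 30 genes, 0.133%. Mpp3 and Mpp2 are membrane scaffold proteins of the same family and neighbours on chromosome 11. Mpp3 had 0.450, 0.200, 0.191, 0.921 and 0.253 FPKM in Oxtr cells, against 0.492 to 57.1 FPKM (median 9.43) in the others, and Mpp2 was found in 1 Oxtr cell and 9 others. Cox18, needed to assemble cytochrome oxidase, had 0.133, 0.651, 0.414, 0.166 and 29.1 FPKM, against 9.46 to 51.0 FPKM (median 29.0). It was found in all 10 other cells, and its value in cell 13 lies inside their span. Phf13, a reader of histone marks, had at most 0.128 FPKM in Oxtr cells, against 0.0523 to 31.3 FPKM (median 13.6). Tmem203, Mtmr9, the corepressor Irf2bp1, the aldehyde dehydrogenase Aldh3b2, the autophagy protein Tecpr1 and Pigu, which helps attach GPI anchors, were each found in 1 Oxtr cell and 9 others. Oxtr cells held 2 to 10 of the 30, against 19 to 28 in the others, where cell 12 held the fewest, a gap that the choice of these genes fixed. In JCb6 cells the median share of the 30 was 58.3%, against 29.0% of all genes. The bases are unlike: the 30 were kept for being found in at least 8 of the other 10 cells. Of all 22635 genes, only 13788 were found in any JCb5.2 cell, so nothing is read from that gap.

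Of 73 feeding and hormone receptors, 33 were found in an Oxtr cell and 52 in an other cell, and their median difference was 0, as over all genes. Of all 22635 genes, 11461 were found in an Oxtr cell and 12974 in an other cell. In 6 receptors the median log2(FPKM + 1) was more than 1 higher in Oxtr cells and in 3 more than 1 lower. Beside these stand 7.65% higher and 4.8% lower over all genes tested, so the counts are near those shares. Ntsr1, the high-affinity neurotensin receptor (chromosome 2, 180499976 to 180544979, plus strand), was 1 of the 85. It had 0, 23.8, 16.6, 9.27 and 18.4 FPKM, against 0.0824 to 12.7 FPKM (median 0.148) in the others, found in cells 11 and 12. Mchr1, the receptor of melanin-concentrating hormone, had 22.9, 2.86, 0.234, 36.8 and 22.9 FPKM, against 0 to 47.2 FPKM (median 0.449), found in 4 of 5 and 3 of 10. Npy2r and Npy5r, receptors of neuropeptide Y, had 0.130, 17.2, 8.86, 11.8 and 74.1 FPKM and 0.151, 10.2, 30.2, 0.448 and 23.2 FPKM in Oxtr cells. In the others Npy2r ran from 0.0937 to 59.4 FPKM (median 0.607) and Npy5r from 0.0611 to 11.7 FPKM (median 0.768). All of these overlap between the groups. Gpr101, an orphan receptor, had 314, 72.6, 93.4, 18.4 and 16.4 FPKM, against 0.515 to 193 FPKM (median 29.5) in the others.

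The melanocortin receptors differed between single cells. Mc3r had 17.2, 11.2, 3.02, 0.155 and 13.5 FPKM, against 0 to 45.2 FPKM (median 3.06). Mc4r, through which alpha-MSH lowers food intake, was found in 1 Oxtr cell, cell 2, at 50.001 FPKM, and in 1 other cell at 20.0 FPKM. Oprm1, the mu opioid receptor, was at most 0.225 FPKM in Oxtr cells and was found in 5 of 10 others, with up to 29.1 FPKM. Absence from 5 cells allows a share of up to about 60.0% of such cells, by the rough limit of 3 divided by the number of cells and for counting error only.

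**Figure D4:**
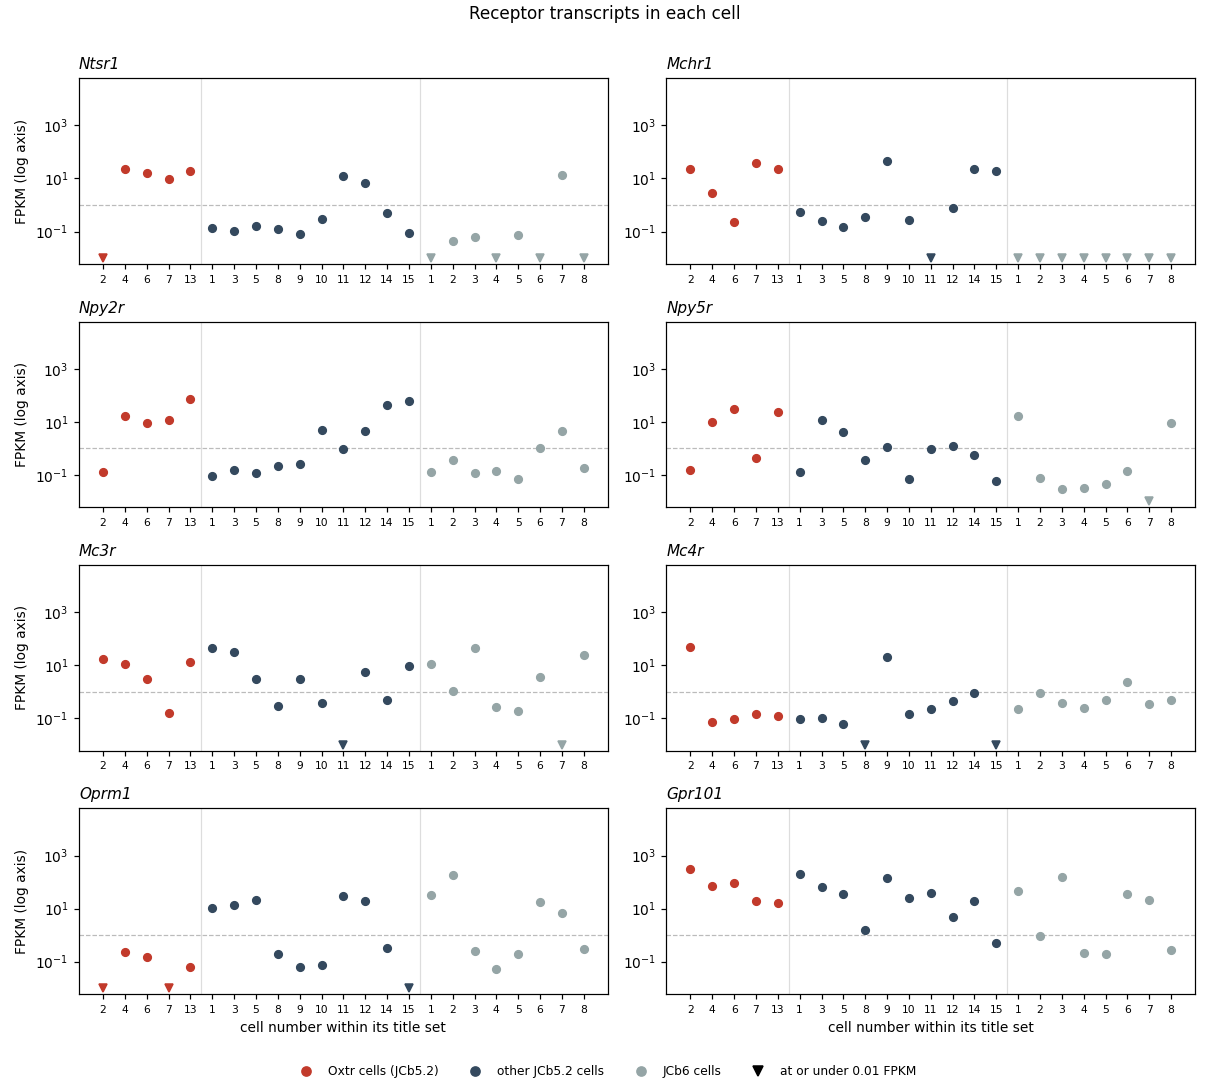
Receptor transcripts in each cell, in FPKM on a log axis, 1 point per cell, with the dashed line at 1 FPKM and triangles at or under 0.01 FPKM. Ntsr1 is at 9.27 FPKM or more in 4 of 5 Oxtr cells and in 1 of the other 10, while Mchr1, Npy2r, Npy5r and Mc3r overlap between the groups and Oprm1 is under 1 FPKM in all 5 Oxtr cells.

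The signalling genes downstream of Oxtr overlapped between the groups for every member whose values are given here. Of 34 genes of the oxytocin system, 25 were found in an Oxtr cell and 27 in an other cell. Their median difference was 0, with 2 more than 1 higher and 3 more than 1 lower. Oxtr, which chose the cells, is 1 of the 2. The shares over all genes tested were 7.65% higher and 4.8% lower, and nothing is read from counts this small. The G proteins Gnaq and Gna11, through which the receptor acts, were found in 5 of 5 Oxtr cells and in 10 and 9 of the others. Gnaq had 16.1, 10.0, 8.15, 44.6 and 5.16 FPKM, against 1.22 to 43.1 FPKM (median 18.4). Plcb1, a phospholipase C, was found in 3 of 5 and 4 of 10, and Itpr1, the IP3 receptor of calcium stores, in 2 of 5 and 5 of 10. Rgs4, which shortens Gq and Gi signalling, was the second gene with the higher median, at 128, 288, 192, 248 and 335 FPKM, against 10.6 to 472 FPKM (median 75.6). Lower medians included those of Rgs2, a Gq-selective regulator, with 46.6, 3.06, 1.24, 32.6 and 0.604 FPKM against 0.0693 to 90.2 FPKM (median 18.7), and of the kinase Prkca, found in 2 of 5 and 6 of 10. The vasopressin receptor Avpr1a was found in no Oxtr cell and 1 other. Oxt itself was found in 1 Oxtr cell, cell 7, at 19.6 FPKM, and in 2 others at up to 30.8 FPKM. Cell 7 was thus the only cell in which Oxtr and Oxt were found together. All 8 JCb6 cells had Oxt, at 322 to 3014 FPKM, and Avp, encoding vasopressin, at 571 to 5186 FPKM. Avp was at most 2.01 FPKM in the JCb5.2 cells, so the JCb6 cells differed from them as a set in both transcripts. Among the Oxtr cells Avp was found only in cell 7, the cell with Oxt, at 1.23 FPKM. It was found in 3 of the other JCb5.2 cells.

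The remaining lists showed mostly small median differences. Of 39 glutamate and GABA receptor subunits, 5 had a median more than 1 lower in Oxtr cells and 2 more than 1 higher, with a median difference of -0.17. Over all genes tested 4.8% were more than 1 lower and 7.65% more than 1 higher. The 5 became 11 with a pseudocount of 0.1, 9 after each cell was rescaled to the same sum and 3 without cell 6. The lower ones included the GABA-A subunit Gabre and the AMPA subunits Gria3 and Gria4. Gria4 was found in 2 of 5 Oxtr cells and 8 of 10 others. The higher ones were the GABA-A subunit Gabrg3 (0.102, 41.2, 66.6, 1.53 and 7.33 FPKM, against a median of 0.874 FPKM) and the NMDA subunit Grin2a. Of 44 ion channels, 5 were more than 1 higher, Kcnj3 and Trpc7 among them, and 5 more than 1 lower, among them Kcnma1, beside the same 7.65% and 4.8% of all genes. Of 49 transcription factors, 3 were higher, Prdm12, Nhlh2 and Pou2f2, and 1 lower, Bsx, which is no more than these shares give.

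Activity and dissociation genes had mostly lower medians in Oxtr cells, following single cells. Of 16 immediate-early genes, 6 were more than 1 lower and 2 more than 1 higher, and their median difference was -0.59, against 4.8% lower, 7.65% higher and a median of 0 over all genes tested. Arc had 15.0, 0.167, 0.177, 14.2 and 0.328 FPKM, against 0.0464 to 144 FPKM (median 22.4), and Nr4a1 had 99.5, 1.53, 4.59, 421 and 2.74 FPKM, against 1.85 to 439 FPKM (median 81.6). Cells 4, 6 and 13 were low for both, cells 2 and 7 were inside the span of the others, and cell 12 had 0.752 FPKM of Arc and 4.17 FPKM of Nr4a1. Fos was found in all 15 cells, with 782, 431, 319, 1676 and 323 FPKM, against 24.99 to 2469 FPKM (median 849.9). Egr1, Egr4, Jun and Fosb were the other genes with lower medians. All cells had been dissociated with papain and trituration, whose part in the values was not tested.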

How the data were processed

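SmartSeq2 amplification, without molecular identifiers, and a NuGen kit gave 1 library per cell, according to the protocols in the labels. The submitters' processing notes name CASAVA 1.8, TopHat, Cufflinks and mm10; the annotation, filters and other versions were not found in the labels. What the authors deposited is a single FPKM table, entered as a score because 12 leftover rows without a gene hold values below 0; those rows were dropped. Very abundant peptide transcripts lower every other FPKM of a cell.

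Of 23896 rows, 286 identical copies were dropped and 27 with date-like names left out; several rows of 124 symbols were summed, giving 23373 genes, of which 22635 have a locus of 300 bp or more. Starts were read as counting from 0, since 9299 of 21591 genes compared with RefSeq started 1 lower and 263 were equal; coordinates are given from 1. Relative depth is the most frequent ratio between a cell and cell 12 of values below 0.5 FPKM, over loci of 500 bp or more. The value of 1 read gave whole reads, within 0.01, for 66 of the 85 genes found with Oxtr. In cell 12, 1 FPKM was worth an estimated 2.21 reads for Nmb and 145 for Xiap, which is among the 85. Cell 7 had 66 reads of Xiap and still lay under 1 FPKM. Found is thus a level that differs in reads between genes, and a gene not found can have reads. The scripts were tested on simulated data. Absolute depth per cell is not derived, and intervals cover counting error only.

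The Oxtr cells, members and lists were chosen with earlier results of these data known. Named genes are Oxtr, Cckar, the first 25 and 10 genes of the main and mirror patterns by difference in the share of cells, then by difference of medians of log2(FPKM + 1); the found members of the oxytocin and cholecystokinin lists; up to 6 members of each other list with the largest difference of medians; 12 set identity genes; and the 10 genes most like Oxtr. Other genes named, such as Speer4b, the Xlr3 genes, those that did not overlap, and cell type markers at 0, were chosen after their values were seen. A few selected genes are left unreported. Alternatives were other levels, conditions, thresholds for Oxtr, scalings, filters, pseudocounts and leaving out each cell. Calculations ran in Python 3.11.15 with pandas 2.3.3, numpy 2.4.6 and scipy 1.17.1, and figures in matplotlib 3.10.9.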

Additional observations from a re-analysis of the deposited data

Results flagged for a closer look

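Single cells stood apart from their group for 5 transcripts, each by a gap to the nearest cell that exceeds Dixon's 95% critical value for the group size. In all, 34 groups of values were looked at. Chance alone marks about 1 in 20 only if values follow a normal distribution. Values of single cells, many of them at or near 0, need not do so, and nothing is read from the number marked. Values are log2(FPKM + 1). Among the Oxtr cells, cell 2 stood highest for Kiss1 at 5.10 (33.3 FPKM), for Sst at 9.82 (903 FPKM) and for Mc4r at 5.67 (50.001 FPKM). Cell 4 stood highest for Gad1 at 6.62 (97.2 FPKM), and cell 13 for Slc32a1 at 0.0829, which is only 0.0592 FPKM beside 4 cells listed at 0, which alone fix its gap. Among the other JCb5.2 cells, cell 8 stood highest for Kiss1 at 10.5 (1485 FPKM), cell 15 for Slc32a1 at 4.02 (15.3 FPKM) and cell 9 for Mc4r at 4.39 (20.0 FPKM). So 3 of the 5 values in Oxtr cells fall on cell 2, which also lacks Gad1, Gad2 and Prdm12 at 1 FPKM.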

How the results depend on the processing

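In place of 85 genes found with Oxtr, 67, 73 and 65 were counted at a level of 0.5, 2 and 5 FPKM, of which 48, 43 and 16 were among the 85, so most of the list was replaced at 5 FPKM. After each cell was rescaled to the same sum 59 were counted, 42 of them among the 85, and 95, with 80 among the 85, when a gene also had to reach 5% of its highest JCb5.2 value. How many cells may go against the pattern moved the counts more: with no Oxtr cell against it, 8 genes (mirror 2); with at most 2, 300 genes (mirror 150); with at most 1 other cell, 20 (mirror 10); with at most 3, 159 (mirror 75). With Oxtr cells taken at 0.3 FPKM, which adds cell 12, 39 genes were counted, 20 of them among the 85; at 7 FPKM, with cell 2 left out, 197 (mirror 77). Without replicate 1 to 15 of JCb5.2, 1 cell at a time, the counts ran from 96 to 198, the most without cell 7, and for the mirror from 36 to 95, the most without cell 13; each cell left out loosens the rule, and all 85 and all 30 were kept. Oxtr was above 0 in 14 JCb5.2 cells and at 10 FPKM in 2. Of 39 glutamate and GABA receptors, 11 had lower medians with a pseudocount of 0.1 and 9 after rescaling, against 5; leaving out 1 cell gave 3 to 7, the fewest without cell 6, 6 to 8 for the POMC neuron list and 4 to 8 for immediate-early genes. The list alternatives were chosen after seeing the data. Of 35 ranked genes, 23, 22 and 10 kept the pattern at 0.5, 2 and 5 FPKM. The cause of each change was not tested. No paired analysis was possible because the JCb5.2 and JCb6 titles share only a number and no difference between them was tested. With 5 and 10 cells, counts of cells are coarse.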
